A study of Homo sapiens with 45 samples.

Results

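TC71 is an established human Ewing sarcoma cell line. Its 3 libraries, of 45 in the series, were compared with the 18 libraries of the other 6 Ewing sarcoma lines, A673, EW3, EW24, MHHES1, RDES and SKES1, with 3 libraries per line. The members were chosen by line alone: the 3 libraries labelled TC71. All 21 libraries came from parental cells with no treatment or transgene named in the labels. The remaining libraries were 18 of 6 osteosarcoma lines, and 6 of A673 with the KCNN1 hairpin sh908, given doxycycline or not; the values and counts of TC71 are set beside them, and 1 alternative added the osteosarcoma lines to the fit. Each line was 1 unit, because libraries of a line share its genome. The labels do not say whether the 3 libraries of a line were separate cultures, so the spread between them may be technical.

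Most Ewing sarcomas, which arise in bone or soft tissue of young people, carry a chimeric transcription factor that joins EWSR1 to FLI1; a few carry ERG or another ETS factor in its place. The fusion protein binds GGAA repeats and ETS sites and raises genes such as NR0B1 and NKX2-2, while it lowers many genes of mesenchymal cells.

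The labelled identity was checked against 11 Ewing sarcoma markers, all of which were above 1 TPM (transcript abundance scaled for length and depth) in TC71. Their summed level was 3140 to 3296 TPM in the TC71 libraries and 1962 to 3890 TPM in the 18 others. In all 3 TC71 libraries GRP was above, and LIPI below, every one of the 18 others, 1 each of 11 (all genes: 2.77% above and 6.37% below), and without GRP the sums were 1959 to 2298 TPM and 1653 to 3793 TPM. CD99, the surface protein used in diagnosis, stood at 552, 564 and 667 TPM against 277 to 1886 TPM in the 18 others. The osteosarcoma libraries had 110 to 1006 TPM of CD99, so its level did not set TC71 apart from them. NR0B1, an orphan nuclear receptor raised by the fusion, stood at 89.0, 73.8 and 71.1 TPM. Its mean was 0.316 TPM in RDES, 0.651 TPM in MHHES1 and up to 196 TPM, in EW3, among the other lines. No osteosarcoma library exceeded 2.91 TPM of NR0B1. NKX2-2, a neural homeobox factor, stood at 22.9, 16.1 and 14.7 TPM. The NKX2-2 values overlapped with those of A673, whose mean was 24.7 TPM, and were under the means of the other lines.

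Of 10 epithelial markers 8 were under 1 TPM in TC71, with CLDN3, KRT5, KRT14 and KRT19 at 0 in all 3 libraries, and the summed level was 6.39 to 8.22 TPM against 23.1 to 650.7 TPM in the other libraries. Of 10 blood cell markers 8 were under 1 TPM, with HBB and CD3E at 0, and the sum was 8.05 to 11.4 TPM against 3.34 to 11.5 TPM, so TC71 lay in the upper part of the range. CD68, a macrophage marker, stood at 5.34, 5.08 and 7.25 TPM against 1.65 to 4.55 TPM, above all 18 other libraries (FDR 0.827, edgeR). Of 10 endothelial markers 7 were under 1 TPM, with KDR, TEK and VWF at 0, and the sum was 70.7 to 102 TPM against 53.8 to 152 TPM, most of it EGFL7. CLDN5, a tight junction protein of endothelium, stood at 13.4, 13.9 and 13.5 TPM against 0.170 to 11.6 TPM, above all 18 with EW3 the next line (FDR 0.827, edgeR). CDH5, the cadherin of endothelium, stood at 0.0514, 0 and 0 TPM against 0.278 to 1.75 TPM, below all 18 (FDR 0.409, edgeR). Of 10 fibroblast markers 4 were under 1 TPM, with POSTN at 0, and the sum was 42.7 to 70.6 TPM against 88.9 to 649.6 TPM. No member of these 4 lists passed the test described below.

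Library totals were 35485064, 29969459 and 25979205 estimated counts in TC71 replicates 1, 2 and 3, and 23132161 to 51413254 in the 18 other libraries. Replicate 3 of TC71 stood apart: transcripts longer than 5000 nt held 17.8% of its counts, against 24.9% and 25.2% in replicates 1 and 2 and 23.97% to 30.3% in the other lines. The 3 TC71 libraries correlated with each other at a Pearson r of 0.979 to 0.991 across genes on a log2 CPM scale (counts scaled by TMM), and with libraries of the other lines at 0.885 to 0.930. Genes are not independent replicates, and these values are a description.

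After the libraries of each line were summed, 13 of 25644 genes (0.0507%) passed the test at a false discovery rate (FDR) under 0.05 in edgeR's quasi-likelihood model. Of these 11 were higher in TC71 (0.0429%) and 2 were lower (0.0078%), and 1470 genes had an unadjusted p under 0.05. The 13 calls rested on all 6 lines as the reference: without A673 only 2 of them were called, and without EW24, EW3, MHHES1, RDES or SKES1 in turn there were 0 calls. All 13 were called without TC71 replicate 3, and all 13 by DESeq2, which called 550 genes (2.14%), 137 higher (0.534%) and 413 lower (1.61%). With the libraries as units, where the error holds only the spread within lines, 11605 of 20756 genes were called (55.9%), 6317 higher (30.4%) and 5288 lower (25.5%), so a call at that level sets few genes apart. The same fit with each other line in the place of TC71 called 18 genes higher in EW3, 7 higher and 11 lower in EW24, 1 higher in A673, 1 higher in RDES and none in MHHES1 and SKES1. The last 2 lines had 929 and 942 genes at an unadjusted p under 0.05. DESeq2 was not run for lines other than TC71.

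A simpler count took genes whose TPM lay above, or below, every one of the 18 other libraries in all 3 TC71 libraries. There were 710 above (2.77% of genes tested) and 1633 below (6.37%), of which 489 and 1081 were at 5 TPM or more on the higher side. With 1 line against 6 no exact permutation test can go under p = 0.143, so these are counts without a test. By TPM, TC71 had the fewest genes above and the most below of the 7 lines. EW3 had 2600 above and 774 below, RDES 2189 and 455, and A673 960 and 1114. The split depended on the scale: on log2 CPM with TMM scaling, which uses no transcript length and adjusts for library composition, the counts in TC71 were 1349 above (5.26%) and 955 below (3.72%), which lay within the range of the other lines, and the share above moved from 30.3% to 58.6%. It also depended on replicate 3, without which 1297 genes were above and 1844 below. The genes at 5 TPM or more that were above had a median effective length of 1731 nt and those below 3185 nt, against 2727 nt over 11264 genes at that level. With replicates 1 and 2 alone these medians were 2429 nt and 2982 nt, and on log2 CPM with all 3 replicates they were 2099 nt and 3700 nt. The genes above were shorter than those below on each, with a smaller gap for replicates 1 and 2 alone. The part of length in these counts was not tested.

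**Figure D1:**
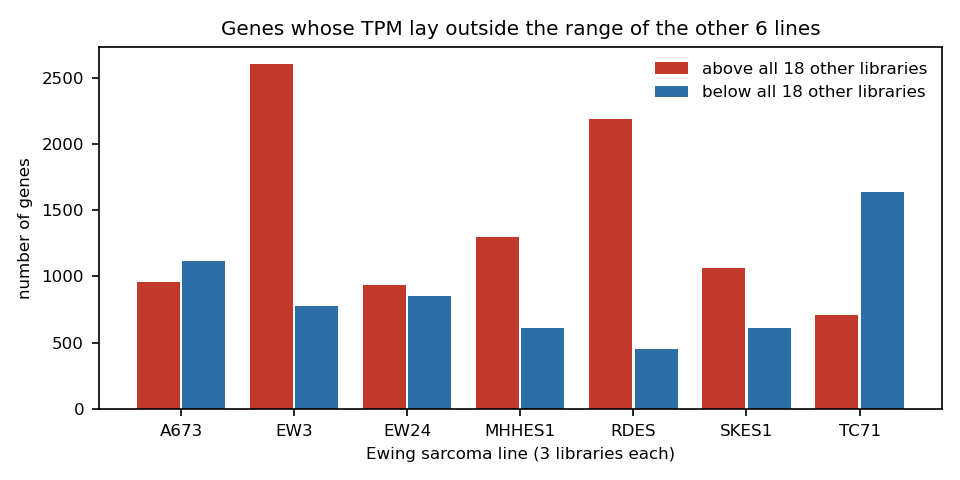
Number of genes (vertical axis) whose TPM in all 3 libraries of a line (horizontal axis) was above (red) or below (blue) all 18 libraries of the other 6 lines, among 25644 genes. TC71 had 710 above and 1633 below.

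Among the 13 called genes, 8 met the rule for naming: outside the range of the 18 other libraries, also called without replicate 3, and at 5 TPM or more on the higher side. Of these 6 were higher and 2 lower in TC71. With the 6 osteosarcoma lines added to the fit CTCFL, PIWIL2, DNAH2 and SLC34A2 were still called. PRSS21 (FDR 0.746), LOC124903237 (0.230), KDM5C (0.131) and TCTN1 (0.0592) then were not, so both genes that fell lost their call (edgeR).

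CTCFL (BORIS), a testis-specific relative of the insulator protein CTCF, lies on chromosome 20 at 57495965-57525652 (GRCh38.p14, as are all positions here). It stood at 95.3, 98.2 and 57.0 TPM in TC71, and at 0.261 to 2.78 TPM, median 0.846, in the 18 other libraries. The groups were far apart: the lowest TC71 library was 20.5 times the highest other one, an EW3 library. CTCFL rose by 6.69 ± 0.68 (log2, SE) with an FDR of 0.0383 in edgeR. A transcript of 3500 nt held 50.1% ± 8.88 (SD, n = 3) of its TPM in TC71. No osteosarcoma library exceeded 0.508 TPM.

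PIWIL2, an Argonaute-family protein that binds piRNAs in the male germ line, lies on chromosome 8 at 22275316-22357568. It stood at 30.97, 29.5 and 17.8 TPM in TC71 and at 0.0114 to 0.289 TPM, median 0.0597, in the others. The lowest TC71 library was 61.6 times the highest of the others, and PIWIL2 rose by 8.52 ± 0.72 (FDR 0.0354, edgeR). It was 1 of the 2 still called without A673.

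PRSS21 (testisin), a membrane-anchored serine protease of sperm cells, lies on chromosome 16 at 2817237-2821719. It stood at 18.2, 19.3 and 19.04 TPM in TC71. In the 18 other libraries the median was 0 and the highest value 0.0586 TPM, from 3 estimated counts in all against 1091 in TC71. The depth-scaled ratio was 2260, with an exact 95% interval of 773 to 10959 that covers counting error only, and PRSS21 was called higher with an FDR of 0.0383 (edgeR). Among the osteosarcoma lines KHOS reached a mean of 40.6 TPM, above TC71, while the median of the 18 osteosarcoma libraries was 0.

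The 250 bases before the RefSeq start of PRSS21 (chr16:2816987-2817236, plus strand, GRCh38.p14) are shown because the gene was near 0 in every other Ewing line and well above it here. CpG dinucleotides, the sites of DNA methylation, are in capitals; there are 11, most of them in the last stretch before the start. Methylation was not measured in these files.
PRSS21 upstream: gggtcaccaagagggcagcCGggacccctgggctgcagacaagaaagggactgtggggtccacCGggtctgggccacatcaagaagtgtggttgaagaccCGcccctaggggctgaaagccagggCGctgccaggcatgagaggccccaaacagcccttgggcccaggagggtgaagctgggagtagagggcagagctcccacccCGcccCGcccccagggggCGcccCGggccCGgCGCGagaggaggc

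DNAH2, a dynein heavy chain of the axoneme that drives cilia and sperm tails, lies on chromosome 17 at 7717744-7833742. It stood at 9.04, 8.95 and 6.001 TPM in TC71 and at 0.0884 to 0.552 TPM in the others, and rose by 6.39 ± 0.54 (FDR 0.0354, edgeR). The leading transcript differed: one of 11889 nt held 48.2% ± 20.3 (SD, n = 3) of its TPM in TC71. In the other 6 lines one of 3011 nt led with 74.3% on average, which held 4.58% ± 1.15 (SD, n = 3) in TC71. These shares are estimates of the authors' transcript assignment, and the levels in the other lines are low.

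Further genes were outside the range of the other lines without passing the test. They were chosen after their values were seen. SMC1B, the meiotic cohesin subunit, stood at 21.5, 21.2 and 12.2 TPM against at most 0.570 TPM elsewhere (FDR 0.117). SAGE1, a cancer-testis antigen, stood at 36.5, 40.4 and 24.6 TPM against at most 0.902 TPM, in SKES1 (FDR 0.553). Its neighbours of the CT45A cluster on chromosome X were also high: CT45A1 stood at 16.6, 7.08 and 20.1 TPM and CT45A3 at 45.1, 49.0 and 43.9 TPM, against at most 0.139 and 0.163 TPM (FDR 0.0563 and 0.0642, edgeR). The CT45A copies are nearly identical, so the division of reads between them is uncertain. Of 32 genes of the cancer-testis list 12, among them MAGEA4, MAGEC2 and CTAG1B, were at 0 in all 3 TC71 libraries. Of the 19 that were tested 1 was above the range of the others (CT45A1), 1 was below (LIPI) (all genes: 2.77% above and 6.37% below) and none passed the test, with a median log2 fold change of -2.86, or -2.68 with genes of 3 counts or fewer in a group at their bound.

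SLC34A2, a sodium-phosphate cotransporter of lung and intestinal epithelium (chromosome 4, 25655851-25678748), stood at 20.9, 26.2 and 15.03 TPM against 0.0657 to 0.783 TPM. It rose by 6.74 ± 0.63 (FDR 0.0354, edgeR), and its highest osteosarcoma library was at 0.0899 TPM. LOC124903237, an uncharacterised RNA on chromosome 13 (64308005-64322817), stood at 7.68, 8.98 and 2.63 TPM and had 1 estimated count in the 18 other libraries. Its ratio was 938, with an exact 95% interval of 168 to 37064 (FDR 0.0354, edgeR).

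The remaining called genes were under 5 TPM in TC71. SPINK5, a serine protease inhibitor of skin, stood at 1.98, 2.18 and 1.17 TPM, and DSCR4, a placental transcript, at 1.605, 1.47 and 2.34 TPM. LOC105373358 stood at 4.58, 4.21 and 3.63 TPM. LOC105376360 stood at 1.96, 1.97 and 1.56 TPM and LOC124902565 at 2.80, 3.08 and 1.68 TPM; both lie at the same place on chromosome 10 and overlap. Whether the reads were assigned by strand is not given in the sources used here, so overlapping genes may share them. No value of these 5 genes in the other Ewing libraries exceeded 0.252 TPM.

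**Figure D2:**
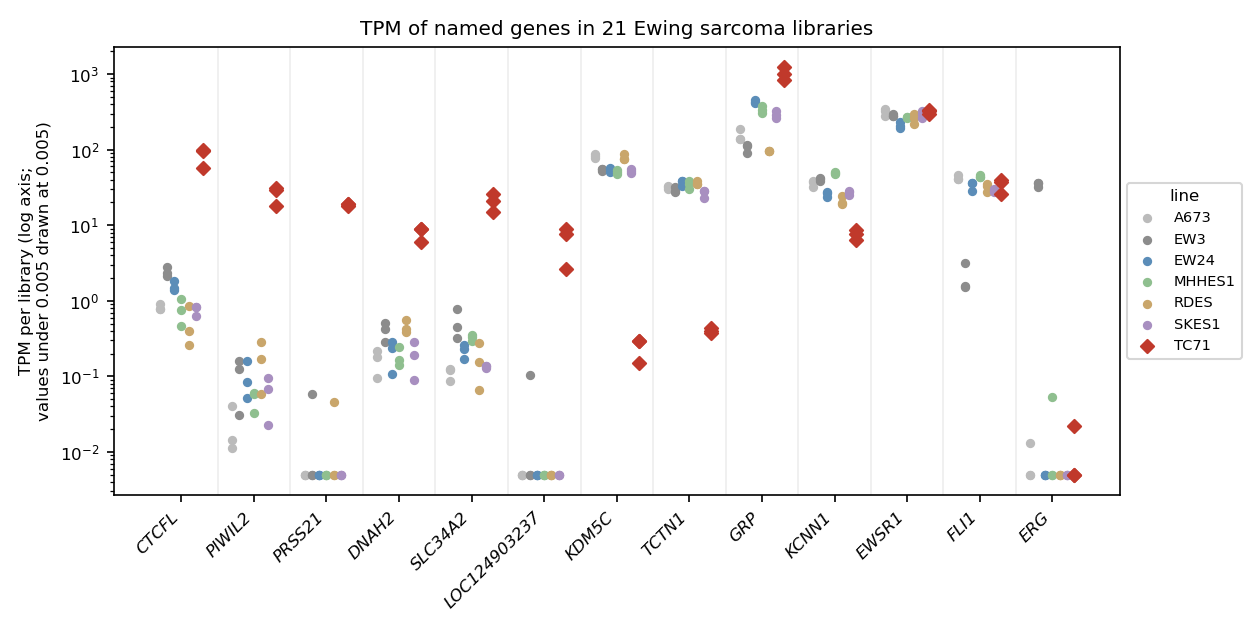
TPM per library (vertical axis, log scale, with values under 0.005 drawn at 0.005) of 13 genes (horizontal axis) in the 7 Ewing sarcoma lines. Red diamonds are the 3 TC71 libraries and circles the 3 libraries of each other line. The TC71 points lie above all others for CTCFL, PIWIL2, PRSS21, DNAH2, SLC34A2, LOC124903237 and GRP, and below all others for KDM5C, TCTN1 and KCNN1.

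Genes that were high in TC71 and missed the threshold included several at high levels, again chosen after their values were seen. ITGB2, the beta chain of leukocyte integrins, stood at 193, 196 and 240 TPM against 2.55 to 24.5 TPM (log2 difference 4.79 ± 0.70, FDR 0.108, edgeR). APOC1, an apolipoprotein, stood at 97.7, 86.8 and 90.6 TPM against 1.22 to 6.72 TPM (4.85 ± 0.66, FDR 0.0914). TBX4, a T-box factor of hindlimb and lung, stood at 18.6, 18.5 and 15.2 TPM against at most 0.111 TPM (FDR 0.0672). None of these ranges touched. CASP10, an initiator caspase, stood at 15.8, 11.3 and 9.06 TPM against at most 0.660 TPM (FDR 0.0658). HSPB6, a small heat shock protein, stood at 19.4, 15.9 and 21.6 TPM against at most 1.68 TPM (FDR 0.0533), and reached 249.8 TPM on average in the osteosarcoma line G292. GALM, the enzyme that interconverts galactose anomers, stood at 149.8, 115 and 101 TPM against at most 24.7 TPM (FDR 0.152). DUSP2, a phosphatase of MAP kinases, stood at 20.3, 21.7 and 18.5 TPM, and FLT3, a receptor kinase of blood progenitors, at 7.05, 7.13 and 4.44 TPM, against at most 1.27 and 0.570 TPM (FDR 0.272 and 0.380).

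Over all genes at 5 TPM or more, 28 of the 489 above had every other line under 1 TPM, and in 90 the lowest TC71 library was at least 2 times the highest other library. On the other side, 106 of the 1081 below were under 1 TPM in TC71, and 171 had a gap of at least 2 times.

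The 2 genes that fell were KDM5C and TCTN1. KDM5C, an X-linked demethylase of histone H3 lysine 4 (chromosome X, 53176277-53225207), stood at 0.297, 0.293 and 0.149 TPM in TC71 and at 47.5 to 88.6 TPM, median 55.0, in the others. It fell by 7.67 ± 0.74 on the log2 scale (FDR 0.0354, edgeR), and the lowest other library was 160 times the highest TC71 one. It was the other gene still called without A673. The lowest osteosarcoma library was at 9.71 TPM, so the near absence was not seen in any other line of the series. In the other lines 4 of its 11 transcripts were over 1 TPM on average; in TC71 none exceeded 0.1 TPM on average over the 3 libraries.

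TCTN1, a protein of the transition zone at the base of cilia (chromosome 12, 110614129-110649430), stood at 0.402, 0.373 and 0.436 TPM against 22.9 to 39.04 TPM, median 32.8. It fell by 5.93 ± 0.56 (log2, FDR 0.0354, edgeR). The lowest osteosarcoma library was at 6.90 TPM, again above TC71.

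Other genes were near 0 in TC71 and well expressed in each of the other lines without passing the test at the line level; they were chosen after their values were seen. COL4A1 and COL4A2, the alpha chains of basement membrane collagen, are divergent neighbours on chromosome 13 (110148963-110307157 and 110307284-110513209). COL4A1 stood at 0.0626, 0.0565 and 0.0262 TPM against 8.84 to 68.5 TPM, and COL4A2 at 0.0636, 0.0861 and 0.0798 TPM against 15.9 to 123 TPM. Neither pair of ranges came near to touching: the lowest other library was 141 and 185 times the highest TC71 one. The log2 differences were -9.05 ± 1.71 and -9.38 ± 1.85 (FDR 0.271 and 0.286 in edgeR; 3.65e-13 and 2.90e-13 in DESeq2).

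The stretch between the starts of the pair (chr13:110307158-110307283, plus strand, RefSeq, GRCh38.p14) is shown because both genes, read from either end of it, were near 0 together. It is 126 bases long and holds 20 CpG, in capitals.
COL4A1-COL4A2 intergenic: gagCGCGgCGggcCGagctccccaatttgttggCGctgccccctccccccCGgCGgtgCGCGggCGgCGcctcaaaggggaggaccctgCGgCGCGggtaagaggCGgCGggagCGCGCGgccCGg

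CALD1, an actin-binding protein of smooth muscle and stromal cells, stood at 0, 0.0067 and 0 TPM against 7.52 to 86.4 TPM, with under 1 estimated count in TC71 against 51878 in the other 18 libraries. The depth-scaled difference was at least 2783-fold lower, with a floor of 3 counts over the TC71 libraries (FDR 0.137, edgeR). DPYSL4, a collapsin response mediator, had 2 estimated counts in TC71 and stood at 12.8 to 99.7 TPM elsewhere, a ratio of 2411 with an exact 95% interval of 668 to 19911. TSHZ3, a zinc finger factor, had 3 counts and stood at 11.5 to 54.7 TPM elsewhere, a ratio of 2294 (785 to 11125). CYYR1 stood at 0.0472, 0.130 and 0.0847 TPM against 23.9 to 105 TPM (FDR 0.121). SCX, a basic helix-loop-helix factor of tendon, stood at 0.108, 0.194 and 0.121 TPM against 19.95 to 60.1 TPM (FDR 0.0642).

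The genes that follow did not pass the test and were chosen after their values were seen. THY1, a surface glycoprotein of stromal and neural cells, stood at 0.805, 0.762 and 1.01 TPM against 18.5 to 145 TPM. SDC2, a heparan sulphate proteoglycan, stood at 0.0819, 0.0635 and 0.0592 TPM against 3.35 to 73.2 TPM. PARVA, a linker of integrins to actin, stood at 0.180, 0.152 and 0.0461 TPM against 6.37 to 25.4 TPM, and FLNC, an actin crosslinker of muscle, at 0.762, 0.783 and 0.645 TPM against 9.09 to 80.4 TPM. In each case all 3 TC71 libraries were below all 18 others. KRT18, a keratin of simple epithelia, stood at 0.394, 0.770 and 0.763 TPM, where the other lines ran from 13.5 TPM in EW3 to 598 TPM in A673. LGALS3BP, a secreted glycoprotein, stood at 9.81, 10.3 and 12.1 TPM against 117 to 548 TPM, and SLC12A7, a potassium-chloride cotransporter, at 0.953, 1.03 and 0.985 TPM against 16.2 to 55.6 TPM. CD40, a receptor of the tumour necrosis factor family, had 2 counts in TC71 and stood at 2.41 to 31.7 TPM elsewhere. CAPN6 was at 0 in TC71 and at 1.95 to 18.2 TPM elsewhere, a difference of at least 372-fold with the floor of 3 counts over the 3 libraries.

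**Figure D3:**
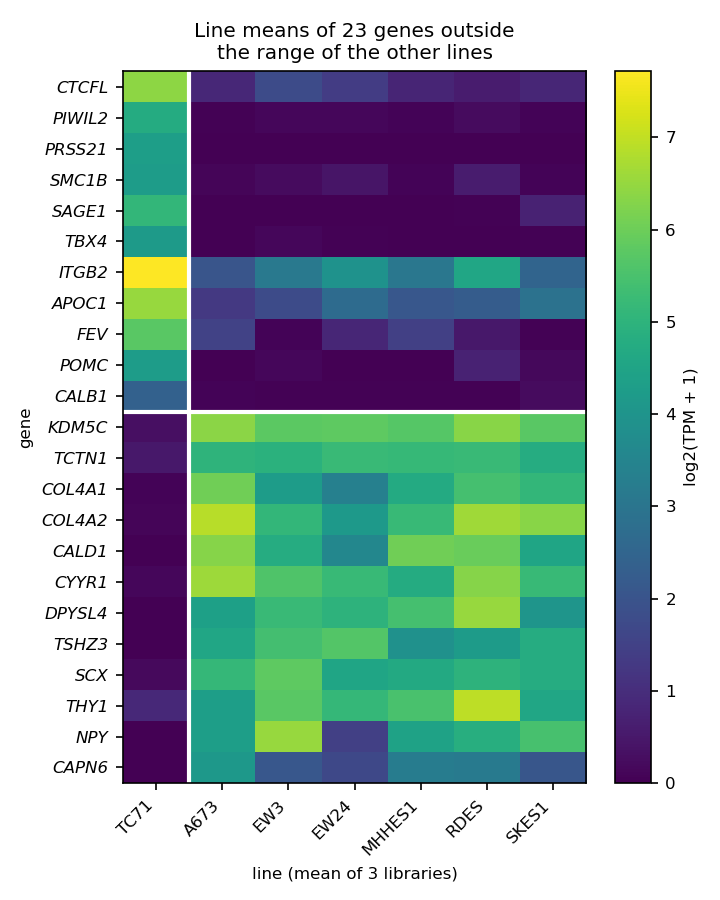
Mean level of 3 libraries, as log2(TPM + 1) in colour, of 23 genes (rows) in TC71 and the 6 other lines (columns). The 11 genes above the white line were above, and the 12 below it were below, all 18 other libraries in every TC71 library.

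GRP, gastrin-releasing peptide, is a neuropeptide that acts on the receptor GRPR, and it is among the markers of these tumours. GRP (chromosome 18, 59219189-59230771) stood at 842, 1005 and 1227 TPM in TC71 and at 90.5 to 457 TPM, median 223, in the 18 other libraries. Every TC71 library was above every other one, and the next line, EW24, had a mean of 435 TPM ± 19.7 (SD, n = 3). The order below it was MHHES1 at 340 ± 32.6, SKES1 at 292.5 ± 33.2, A673 at 155 ± 26.4, EW3 at 106 ± 13.7 and RDES at 95.8 ± 1.30 TPM; the ranges of MHHES1 and SKES1 overlapped and those of EW3 and RDES overlapped. The log2 difference of 2.40 ± 0.76 was not significant at the line level (FDR 0.719, edgeR; 0.242, DESeq2), and ran from 2.11 to 2.70 when single lines or replicates were left out. The same transcript of 858 nt led in TC71, with 56.6% ± 2.20 (SD, n = 3), and in the other lines, with 55.5% on average. GRPR was near 0 in TC71, at 0.111, 0.0803 and 0.0249 TPM, as it was in the other Ewing lines, where no library exceeded 0.140 TPM. No osteosarcoma library exceeded 0.672 TPM of GRP.

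Of the 42 genes of the neuropeptide list 34 were tested. GRP alone was above the range of the others, and NPY, CCK, NTS, CCKAR and ADCYAP1R1 were below it, or 1 and 5 of 34 (all genes: 2.77% above and 6.37% below). No member passed the test, 10 were higher and 24 lower, and the median was -0.77, or -0.62 with genes of few counts at their bound, against -0.20 over all genes. NPY, neuropeptide Y, was at 0 in all 3 TC71 libraries and at 1.21 to 98.3 TPM elsewhere, a difference of at least 208-fold. CCK, cholecystokinin, stood at 0.942, 1.05 and 1.09 TPM; A673 was close to it with a mean of 1.98 TPM, and the other 5 lines had means of 172 to 577 TPM. NTS, neurotensin, stood at 0.377, 0.395 and 0.370 TPM against 0.465 to 53.5 TPM. POMC, the precursor of corticotropin and melanocortins, stood at 17.2, 16.3 and 20.9 TPM against at most 0.816 TPM (FDR 0.482); it was not on the list and was chosen after its values were seen.

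KCNN1 codes for SK1, a small-conductance potassium channel opened by calcium through calmodulin, and is the gene that sh908 targets in the rest of the series. KCNN1 (chromosome 19, 17951290-18000085) stood at 8.53, 7.76 and 6.43 TPM in TC71 and at 19.2 to 50.8 TPM, median 30.01, in the others. All 3 TC71 libraries were below all 18 others, and the nearest line was RDES with a mean of 20.99 TPM. The log2 difference of -1.77 ± 0.55 was not significant (FDR 0.698, edgeR; 0.0886, DESeq2). Its level remained above every osteosarcoma library, the highest of which was at 4.65 TPM. The same transcript of 3594 nt led, with 71.9% ± 16.6 (SD, n = 3) in TC71 and 55.9% on average in the other lines.

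Of the 51 genes of the list of calcium handling and KCNN channels 50 were tested and none passed; 19 were higher and 31 lower, with a median of -0.42. RYR1 and CALB1 were above the range of the others, and KCNN1, KCNN3, ATP2A2, CACNA1A, CACNA1C and CACNA1H below it, or 2 and 6 of 50 (all genes: 2.77% and 6.37%). CALB1, the calcium buffer calbindin, stood at 4.36, 6.005 and 2.27 TPM against at most 0.215 TPM (FDR 0.108). ATP2A2, the calcium pump of the endoplasmic reticulum, stood at 85.8, 79.1 and 40.6 TPM against 111 to 229 TPM (FDR 0.827). CACNA1H, a low-voltage-activated calcium channel, stood at 6.70, 6.37 and 4.74 TPM against 11.05 to 64.6 TPM (FDR 0.827). KCNN3, the SK3 channel, stood at 0.0940, 0.0728 and 0.0524 TPM against 0.0994 to 1.90 TPM. It was near 0 and the gap was narrow, with A673 next at a mean of 0.121 TPM. CACNA1A and CACNA1C were near 0 too. CACNA1A stood at 0, 0.0283 and 0.0328 TPM against 0.0567 to 2.56 TPM, and CACNA1C at 0, 0.00408 and 0 TPM against 0.0221 to 1.22 TPM.

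EWSR1 and FLI1, the fusion partners, lay within the range of the other lines. EWSR1 stood at 327, 299 and 332 TPM against 192 to 341 TPM (log2 difference 0.46 ± 0.34, FDR 0.827, edgeR). FLI1 stood at 39.2, 37.8 and 25.6 TPM against 1.51 to 46.5 TPM (0.46 ± 1.11, FDR 0.941), and a single transcript held all of its TPM in TC71. The low end came from EW3, with a mean of 2.08 TPM, which was also the line with ERG, another ETS gene, at 34.8 TPM. ERG was at 0.0220, 0 and 0 TPM in TC71 and at 0.0527 TPM or less in the other lines without EW3. FEV, another ETS gene, normally of serotonergic neurons, stood at 29.1, 31.4 and 98.6 TPM in TC71 and at most at 2.56 TPM elsewhere (FDR 0.441, edgeR; 0.0195, DESeq2). Replicate 3 was over 3 times the other libraries of TC71, and the gene was chosen after its values were seen.

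Of 34 genes activated by EWS-FLI1, all were tested and none passed: 11 were higher and 23 lower, with a median of -0.38. EGR2 and VRK1 were above the range of the others, and LIPI, ID2, RBM11, SOX2 and CCK below it, or 2 and 5 of 34 (all genes: 2.77% above and 6.37% below). On log2 CPM 3 were above and 3 below (all genes: 5.26% and 3.72%). EGR2, a zinc finger factor of Schwann cells, stood at 50.8, 57.5 and 27.9 TPM against 0.534 to 21.01 TPM (FDR 0.756). VRK1, a nuclear kinase, stood at 229.96, 214 and 165 TPM against 47.9 to 134 TPM (FDR 0.724). LIPI, a phosphatidic acid lipase, and its chromosome 21 neighbour RBM11 were both low, at 36.8, 36.9 and 16.5 TPM and at 56.0, 57.8 and 31.1 TPM, against 38.2 to 225 and 114 to 341 TPM (FDR 0.827 and 0.573, edgeR). The gap for LIPI was small, since its nearest library was in EW3.

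Of 20 genes repressed by EWS-FLI1 19 were tested and none passed. COL1A2, DKK1, IGFBP3 and THBS1 were below the range of the others, or 4 of 19 (all genes: 6.37%). None was above it, and the median was -3.58 with 3 higher and 16 lower. On log2 CPM none was above and 3 were below (all genes: 5.26% and 3.72%). IGFBP3, which binds insulin-like growth factors, was at 0 in TC71 and at 0.309 to 51.4 TPM elsewhere, at least 337-fold higher. DKK1, a Wnt antagonist, was at 0 and at 0.0328 to 3.63 TPM elsewhere, at least 30.1-fold higher. Both bounds use a floor of 3 counts over the 3 TC71 libraries. COL1A2 stood at 0, 0.0122 and 0.0454 TPM against 0.0612 to 203 TPM, with EW24 the nearest line. THBS1 stood at 0.0859, 0.0777 and 0.0849 TPM against 0.134 to 10.3 TPM, with SKES1 the nearest. Both gaps were narrow and near 0. A summed level of 57.7 to 107 TPM in TC71 compared with 77.4 to 642 TPM in the other libraries, so the ranges of the sum overlapped.

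CDKN2A, which codes for the inhibitors p16 and ARF, stood at 0.115, 0.0685 and 0.0795 TPM in TC71. A673 was at 0 and the other 5 lines had means of 19.8 to 162 TPM, so TC71 and A673 stood together and TC71 was not outside the range. The adjacent MTAP stood at 22.6, 19.6 and 13.6 TPM, overlapping with RDES and SKES1. Of 20 genes of G1/S control none passed, 1 was above the range (all genes: 2.77% above and 6.37% below) and none below, and the median was -0.05. That gene was CDKN2D, the inhibitor p19, at 24.4, 25.3 and 25.2 TPM against 5.54 to 19.3 TPM.

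Of 24 S phase genes 20 were higher and 4 lower, with a median of 0.29, and of 24 G2/M genes 16 were higher and 8 lower, with a median of 0.17. None passed the test; 1 was above the range in each list and 1 G2/M gene below it (all genes: 2.77% above and 6.37% below). CDC45, a helicase factor of replication origins, was above the range of the others at 108, 111 and 110.4 TPM against 49.7 to 94.1 TPM. BIRC5 (survivin) was above it too, at 361, 342 and 359 TPM against 111 to 323 TPM. CDC25C, the phosphatase that starts mitosis, was below, at 16.7, 16.03 and 13.8 TPM against 17.1 to 32.1 TPM. Of 16 replication-dependent histone genes, whose transcripts mostly lack a poly(A) tail, none passed; H2AC8 and H2BC8 were below the range (all genes: 6.37%) and the median was -0.18. Of 19 cohesin and telomere genes none passed, the median was 0.09, and STAG1 and TERF1 were below the range (all genes: 6.37%). STAG2, the cohesin subunit often mutated in Ewing sarcoma, stood at 74.7, 79.3 and 19.8 TPM, within a range of 4.79 to 121 TPM.

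Of 43 genes of the matrix and mesenchymal state none passed, 9 were higher and 34 lower, and the median was -1.16 against -0.20 over all genes. Below the range were COL1A2, COL4A1, COL4A2, COL18A1, FN1 and THBS1, 6 of 43 (all genes: 6.37%), and above it was THBS2 alone, 1 of 43 (all genes: 2.77%). On log2 CPM 2 were above and 4 below (all genes: 5.26% and 3.72%). FN1, fibronectin, stood at 5.96, 7.21 and 7.70 TPM; EW24 and SKES1 were next with means of 37.4 and 40.8 TPM, and A673 was highest with 1340 TPM. THBS2, a thrombospondin, went the other way, at 10.4, 10.7 and 5.66 TPM against at most 4.38 TPM, in A673. The summed level of the list was 2336 to 2892 TPM in TC71, inside the 2671 to 8910 TPM of the others only at its upper end. Markers of fibroblasts gave a median of -2.40, of epithelium -1.62, of blood cells -1.13 and of endothelium -3.48, which became -2.40, -0.998, -1.29 and -2.42 with genes of few counts at their bound. The 11 Ewing sarcoma markers gave 0.42.

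Of 36 genes of MHC class I and the interferon response none passed, 9 were higher and 27 lower, and the median was -1.37. IFITM3, OAS1, OAS3 and ERAP1 were below the range of the others, and HLA-E was above it, or 1 above and 4 below of 36 (all genes: 2.77% above and 6.37% below). IFITM3, an antiviral membrane protein, stood at 36.2, 33.4 and 47.2 TPM against 157 to 1623 TPM. OAS3, an antiviral synthetase, stood at 0.636, 0.681 and 0.362 TPM against 1.63 to 235 TPM. ERAP1, which trims peptides for MHC class I, stood at 1.94, 2.05 and 1.11 TPM against 2.18 to 31.04 TPM. HLA-E, a ligand of natural killer cell receptors, stood at 56.6, 61.0 and 57.4 TPM against 17.6 to 51.3 TPM (FDR 0.827). MHHES1 replicate 3 stood apart from its sister libraries in these genes: OAS3 stood at 235 TPM in it against 28.7 and 37.5 TPM, OAS1 at 217 TPM against 15.6 and 19.05 TPM, and IFITM3 at 1623 TPM against 362 and 426 TPM. Without it the highest other library stood at 44.2 TPM for OAS3, 29.9 TPM for OAS1 and 618 TPM for IFITM3, and the list median was -0.70 in place of -1.37 with still no member called.

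Of 43 receptor kinase and insulin-like growth factor genes tested none passed; 9 were higher and 34 lower, with a median of -1.11. FGFR3, a fibroblast growth factor receptor, was above the range at 51.4, 61.5 and 38.8 TPM against 0.435 to 15.7 TPM (3.12 ± 0.77, FDR 0.486). Below it were KIT, DDR2, AXL, EPHB2, EPHB4 and IGFBP3, so 1 was above and 6 below of 43 (all genes: 2.77% above and 6.37% below). KIT, the stem cell factor receptor, stood at 4.40, 4.83 and 1.75 TPM; A673 was next with a mean of 5.78 TPM, and the other 5 lines had 31.1 to 75.1 TPM. DDR2, a collagen receptor, stood at 12.7, 12.02 and 5.16 TPM against 23.1 to 310 TPM, below all 18 libraries.

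Of 37 neural markers tested none passed; 14 were higher and 23 lower, with a median of -0.68. NEFH, the heavy neurofilament, was above the range at 258, 242 and 260.1 TPM against 0.0464 to 191 TPM, with SKES1 the next line. NEUROD1, a neurogenic factor, stood at 2.37, 1.85 and 1.09 TPM against at most 0.543 TPM, and NEUROG2 at 0.495, 0.453 and 0.342 TPM against at most 0.125 TPM. SNAP25, of the synaptic vesicle machinery, was below, at 0.340, 0.102 and 0.0595 TPM against 3.27 to 9.59 TPM, as were MAP2 and SOX2, so 3 were above and 3 below of 37 (all genes: 2.77% above and 6.37% below). Of 38 HOX genes tested none passed and the median was -0.28. HOXA10, HOXB8, HOXB9 and HOXD1 were above the range and HOXC13 below it, or 4 and 1 of 38 (all genes: 2.77% above and 6.37% below); on log2 CPM 5 were above and none below (all genes: 5.26% and 3.72%). HOXB9 stood at 10.4, 12.7 and 17.6 TPM against 0.116 to 5.11 TPM, and HOXA10 at 14.98, 14.3 and 9.82 TPM against at most 8.36 TPM; both were within the range of the osteosarcoma libraries or under it.

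**Figure D4:**
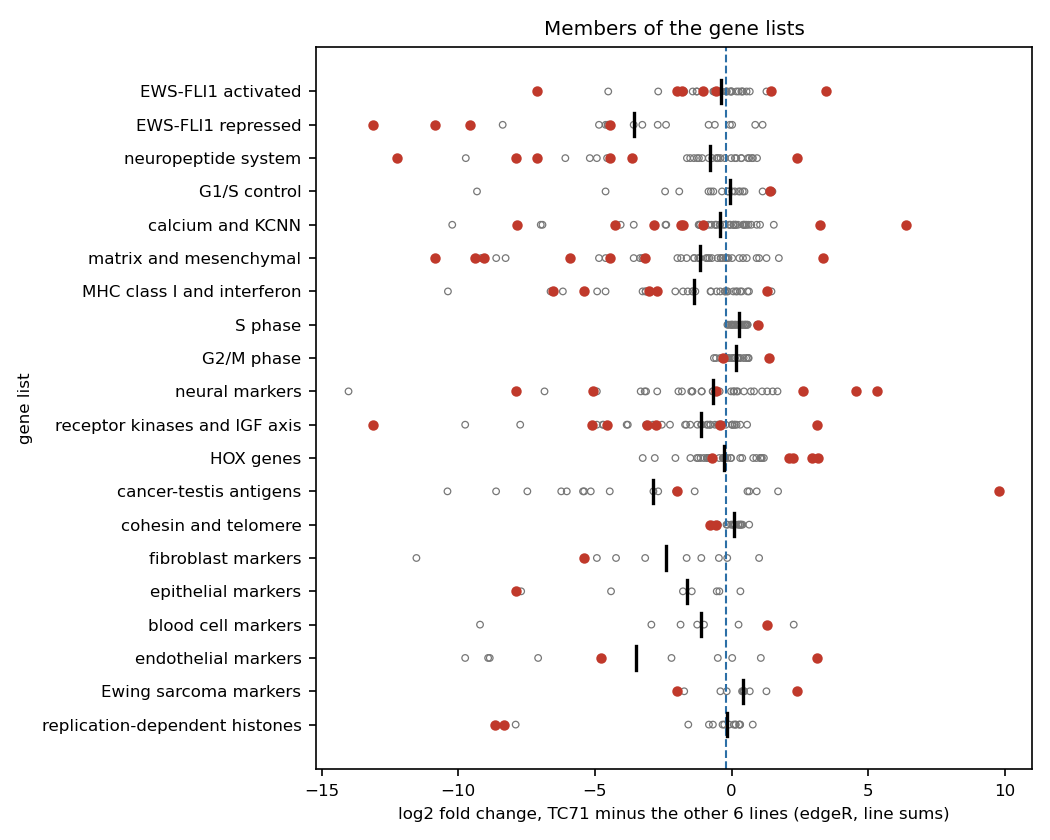
Log2 fold change of TC71 minus the other 6 lines (horizontal axis, edgeR on line sums) for the tested members of 20 gene lists (vertical axis). Red points were outside the range of the 18 other libraries, open points were not, black bars are list medians and the dashed line is the median of all genes, -0.20. No point passed the test at an FDR under 0.05, and fitted values of genes with few counts are no measured folds.

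The share of genes outside the range is given by chromosome as a description, with no test. Over 11250 genes at 5 TPM or more with a position, 4.34% were above and 9.61% below. The share above was 11.9% on chromosome 14, 9.79% on chromosome 13 and 9.70% on chromosome 8, and the share below was 18.5% on chromosome 12, 16.8% on chromosome 11 and 16.7% on chromosome 8. Chromosome 13 had 19 above and 3 below, and chromosome 11 had 7 above and 110 below. With replicates 1 and 2 alone these counts were 49 and 3, and 14 and 138. Over all these genes 8.22% were then above and 10.6% below, and the order differed: the share above was 25.3% on chromosome 13, 23.8% on chromosome 14 and 19.2% on chromosome 8, and the share below was 21.1% on chromosome 11, 19.2% on chromosome 12 and 17.7% on chromosome 8.

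**Figure D5:**
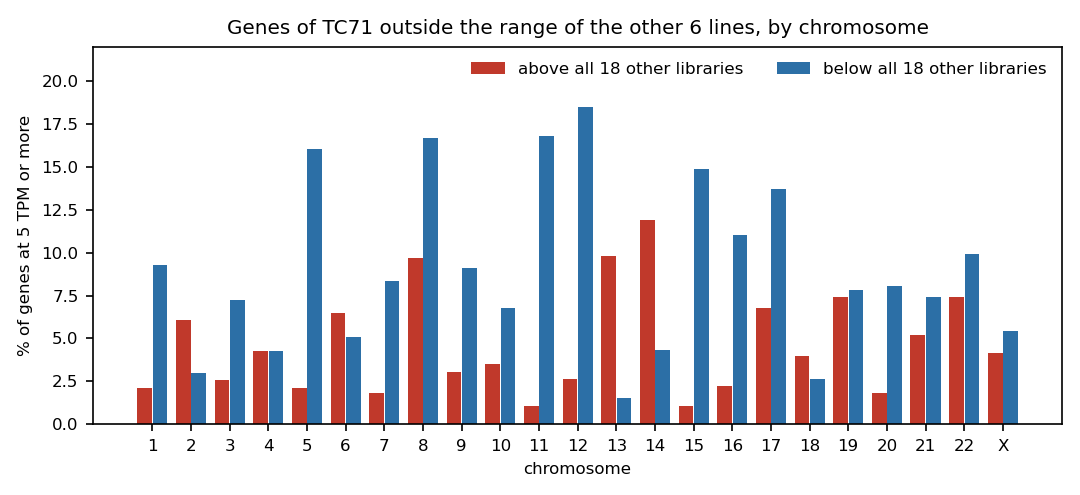
Share of genes at 5 TPM or more (vertical axis, percent) that were above (red) or below (blue) all 18 libraries of the other lines in every TC71 library, by chromosome (horizontal axis). Chromosomes 13 and 14 had more above than below, and chromosomes 11 and 12 more below than above.

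In windows of 10 Mb with at least 20 such genes, 209 in all, the median log2 fold change ran from -0.89 to 1.14. The lowest was chromosome 12 from 110 to 120 Mb, where 33 of 54 genes were below and none above. The start of chromosome 12, from 0 to 10 Mb, had 33 of 68 genes below and a median of -0.84, and chromosome 8 from 140 to 150 Mb had 45 of 75 below and a median of -0.83. The highest window was chromosome 8 from 120 to 130 Mb, with 9 of 30 genes above, 3 below and a median of 1.14, or 17 above and 3 below with replicates 1 and 2 alone, so chromosome 8 held windows near both ends of the range. No count of gene copies was used here, and its part was not tested.

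The longest run of neighbouring genes on the same side, among genes at 5 TPM or more, was 11 genes below on chromosome 12 (112405181-113966325), from RPL6 and PTPN11 through OAS1, OAS3 and DDX54 to RBM19. PTPN11, the phosphatase SHP2 of growth factor signalling, stood at 63.1, 60.0 and 21.6 TPM against 78.3 to 147 TPM. A run of 10 lay before it (109850945-110468721, GLTP to GPN3) and included ATP2A2, and a run of 7 (111452214-112013219, ATXN2 to TMEM116) included ALDH2. ALDH2, mitochondrial aldehyde dehydrogenase, stood at 1.45, 1.33 and 1.17 TPM against 2.65 to 15.8 TPM. TCTN1 lies between the last 2 of these runs. Another run of 10 genes below, on chromosome 8 (133454848-141432454), held KHDRBS3, an RNA-binding protein, at 1.20, 1.08 and 0.438 TPM against 2.62 to 241 TPM, with AGO2 and PTK2.

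The longest run above was of 6 genes on chromosome 19 (507497-663214, TPGS1, CDC34, BSG, HCN2, POLRMT and RNF126). The CT45A copies and SAGE1 formed a run of 5 on chromosome X (135708398-135913062). In the high window of chromosome 8, MRPL13, a protein of the mitochondrial ribosome, stood at 706, 682 and 654 TPM against 81.3 to 179 TPM (2.79 ± 0.39, FDR 0.0956, edgeR). NDUFB9, a subunit of respiratory complex I, stood at 2071, 2125 and 2644 TPM against 398 to 907 TPM (2.20 ± 0.40, FDR 0.231), and its neighbour TATDN1 at 393, 432 and 325 TPM against 80.6 to 171 TPM (2.02 ± 0.37, FDR 0.250). The lowest TC71 library of MRPL13 was 3.65 times the highest of the other lines.

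Set beside the osteosarcoma lines, 267 of the 489 genes above were also above all 18 osteosarcoma libraries, and 350 of the 1081 below were below all of them. Against the 6 A673 libraries with sh908 the counts were 411 and 523; in 4 of these 6, transcripts longer than 5000 nt held 17.5% to 20.6% of the counts, against 17.8% in TC71 replicate 3, and the part of this in these counts was not tested. The matching shares over all genes were not counted, so these 4 counts do not show that the genes outside the range are unusual in this respect. A673 was also the line closest to TC71 for CCK, KIT and CDKN2A.

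Promoters of the genes outside the range were compared in RefSeq windows of 250 bases before to 50 after the start. A promoter was found for 379 of the 489 genes above, 842 of the 1081 below and 8896 of the 11264 genes at 5 TPM or more. The median ratio of observed to expected CpG was 0.84, 0.82 and 0.84. It was 0.60 in the 28 genes with every other line under 1 TPM, 15 of which had a window. In the 106 under 1 TPM in TC71, 73 of which had a window, it was 0.73. Both sets belong to the genes at 5 TPM or more, whose median was 0.84. Over the 18046 windows of all genes tested it was 0.74. PRSS21 and CTCFL, called higher, had ratios of 0.50 and 0.39. KDM5C, called lower, had 1.002, and COL4A1, which was not called, 1.021. Ratios of the other called genes are not given here, and the medians of all genes above and below, 0.84 and 0.82, were close. The sequence GGAAGGAA, 2 GGAA units in a row on either strand, was in 5.28% of windows above, 5.23% below and 4.61% at 5 TPM or more. It was in 2 of the 15 windows (13.3%) and 5 of the 73 windows (6.85%), against 4.61% at 5 TPM or more and 4.75% over all genes tested. A match is a description of letters, and neither a longer GGAA repeat nor a binding site. Longer repeats were not searched.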

How the data were processed

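RNA was measured by poly(A) RNA sequencing (NucleoSpin RNA Plus kit and Illumina TruSeq Stranded mRNA kit, per the labels' protocols) in 45 libraries of human cell lines. Per the submitters' processing notes, fastp 0.19.5, kallisto 0.46.2, hg38 and GRCh38.p14 were used. The authors deposited for each library, per the file headers, expected counts (estimated counts, not scaled for depth), TPM values, which the authors normalised for depth and effective length, and other values, namely the length and effective length of 177816 RefSeq transcripts. The option for strand is not given in the sources used here.

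Transcripts were joined to genes by accession through RefSeq (GRCh38.p14): 169966 matched (95.6%), and those unmatched held 1.06% to 1.36% of the counts of the Ewing lines. Counts and TPM were summed over transcripts for 41582 genes. Total estimated counts were 25979205 to 35485064 in TC71 and 23132161 to 51413254 in the other Ewing lines.

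The 3 libraries of each line were summed, rounded and tested as 1 line against 6 with edgeR (TMM scaling, filterByExpr with a minimum count of 10, robust quasi-likelihood, Benjamini-Hochberg FDR under 0.05). The spread of the 6 lines gave the error (5 residual degrees of freedom), and TC71 was taken to vary like them. The filter kept a gene expressed in a single line, whichever it was. A gene was outside the range if its TPM in all 3 TC71 libraries was above, or below, all 18 other libraries. The median log2 fold change was -0.20 over all genes and 0.07 over the 11264 genes at 5 TPM or more; fold changes are given without subtracting it.

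Genes were named by a rule: up to 10 each way among called genes outside the range, called without TC71 replicate 3 and at 5 TPM or more on the higher side, with GRP, KCNN1, EWSR1, FLI1 and ERG and the called members of each list. X-inactivation and Y-linked genes were left out. Other names are said to be chosen after their values were seen, or are list members outside the range, which were named for the same reason. The members, the 21 lists (527 distinct genes, 1 list not reported here) and the rule were chosen with earlier results of these data known. A group at 0 counts was set to a floor of 3 counts in all, which gives a lower bound of the fold, and ratios with 1 to 3 counts have exact 95% intervals. Both cover counting error only, since the reads carry no molecular identifiers and are not independent.

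Alternatives were other scaling, tests, filters and units of replication, and leaving out libraries and lines. Software: R 4.3.3 with DESeq2 1.42.0, edgeR 4.0.16 and limma 3.58.1; Python 3.11.15 with scipy 1.17.1, pandas 2.3.3, numpy 2.4.6 and matplotlib 3.10.9.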

Additional observations from a re-analysis of the deposited data

Results flagged for a closer look

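Among the 6 other Ewing lines, 16 of 113 genes examined had 1 line far from the other 5 on the log2(TPM + 1) scale by Dixon's criterion. Chance flags about 1 in 20 groups, but most of these genes were chosen after their values were seen, so that rate does not apply to them. For DSCR4, CT45A3 and LOC124903237 the other 5 lines were at 0, where any value above 0 meets the criterion, so these 3 are no sign that a line stood apart. A673 stood apart in 3 genes: it was the lowest for KIT (5.78 TPM) and CCK (1.98 TPM) and the highest for THBS1 (8.38 TPM). EW3 stood apart for ERG (34.8 TPM, highest), FLI1 (2.08 TPM, lowest), CACNA1A (2.02 TPM, highest) and TBX4 (0.103 TPM, highest), and was the line above 0 for LOC124903237 (0.0353 TPM). EW24 was highest for CT45A1 (0.0665 TPM), CT45A3 (0.0543 TPM) and NEUROG2 (0.0658 TPM), and SKES1 for CALB1 (0.178 TPM) and SAGE1 (0.684 TPM). RDES was highest for DSCR4 (0.0139 TPM) and POMC (0.660 TPM), and MHHES1 for CCKAR (0.991 TPM). Over the 18 libraries of these lines CT45A1 had 2.70 estimated counts in all, NEUROG2 8, TBX4 24.2 and CALB1 43. The flags of these genes rest on few reads near 0. TC71 did not enter this comparison.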

How the results depend on the processing

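The 13 calls were 13 with DESeq2-type size factors and 13 with an effective length offset. They were 8 with all 13 lines in the fit, all higher, of which 5 were shared, 25 without a filter on low counts, 73 and 130 with limma on log2(TPM + 0.1) and log2(TPM + 1), and 550 with DESeq2. Without A673 there were 3 and without EW24, EW3, MHHES1, RDES or SKES1 0 each. Without replicate 1, 2 or 3 of TC71 there were 13 to 15, without MHHES1 replicate 3, a choice made after seeing the data, 13, and without replicate 1, 2 or 3 of every line 13 to 18, of which 8, 13 and 11 were shared. At the library level, where the error is the spread within lines alone, 11605 of 20756 genes (55.9%) were called, and 11655 with a replicate block. The replicate numbers did not pair the libraries: 18 same-numbered pairs of TC71 and another line correlated at -0.14 to 0.20 in their deviations, 2 were over 0.1, and 7 of 18 correlated best with their own number.

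Genes above the range numbered 720 without MHHES1 replicate 3, 780 to 1297 when a TC71 replicate was left out and 1349 on log2 CPM. Genes below numbered 1653 without MHHES1 replicate 3, 1844 to 2112 without a TC71 replicate, 2489 without A673 and 955 on log2 CPM. List counts outside the range without TC71 replicate 3 or on log2 CPM, chosen after seeing the data, differed by 2 members or fewer on either side. Over single genes, no direction reversed, 2093 values kept their side of the threshold, 287 passed it newly and 91 no longer passed it. The cause was not tested. With 1 line on 1 side, the error comes from the other 6 lines alone.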
